A study of Mus musculus with 60 samples.

Results

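The step from morula to blastula was examined in mouse embryos that developed in vivo, by comparing the 3 in vivo blastula libraries with the 3 in vivo morula libraries over all genes. These 6 libraries were chosen by their labels from the 60 libraries of the series, and the table lists 27238 genes, of which 13885 had a value above 0 in at least 1 of the 6. Each library was made from 1 embryo, picked on its morphology, and the study describes the 3 embryos of a group as biological replicates. All were BDF1 embryos, from superovulated C57BL/6 females mated with DBA2 males, and no treatment distinguishes the stages. The same step in embryos made by nuclear transfer (NT) is set beside it where a test of the difference was made. NTC embryos carry the nucleus of a cumulus cell and NTM embryos that of a cultured BDF1 embryonic fibroblast (MEF), both in BDF1 oocyte cytoplasm. NT embryos were activated with strontium and Scriptaid and grown in culture medium, so nuclear transfer, these agents and culture cannot be told apart in them. The study compared these stages to place differences of NT blastulas in developmental time.

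A morula is a compacted ball of cells, and the blastula (blastocyst) that follows has a fluid-filled cavity. Its outer layer, the trophectoderm, is an epithelium that pumps fluid inward and later forms the placenta, while the inner cell mass gives rise to the epiblast and the primitive endoderm. Cdx2, Gata3 and the keratins Krt8 and Krt18 mark the trophectoderm, Pou5f1, Nanog and Sox2 the pluripotent cells, and Gata6, Gata4 and Sox17 the primitive endoderm. A library of a whole embryo mixes these cells, so fewer cells of a type and less RNA per cell cannot be told apart.

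Fewer genes were detected in the blastulas than in the morulas. Values are RPKM, reads per kilobase of exon and scaled to the total of reads on genes. The blastulas had 8557973 to 15706984 reads on genes and the morulas 13671374 to 19057888. Genes above 0 numbered 7808, 7804 and 7730 in the 3 blastulas and 10109, 10870 and 11069 in the 3 morulas. Among genes with recovered reads, the numbers expected at the depth of the shallowest of the 6 libraries were 7293 to 7796 in the blastulas and 9458 to 10734 in the morulas, without overlap, and 10947 to 13054 in the 6 NT blastulas. Across genes, log2(RPKM + 1) correlated at 0.753 to 0.760 between blastulas, 0.884 to 0.923 between morulas and 0.725 to 0.785 between the stages, where genes are not independent replicates. Of 4103 genes with at least 10 RPKM in 1 or more blastulas, 704 were at 0 in another blastula, against 91 of 3426 genes in the morulas. Morula 1 stood apart from the other morulas, with 64.2% of its reads on mitochondrial genes against 30.8% and 29.6%, and blastula 1 had 34.9% against 20.5% and 21.2%. With mitochondrial reads left out of the totals, 194 genes were called in the comparison below, and 179 with libraries weighted by their spread, and both included all 69 genes called without these steps. The part of the lower number of detected genes in the results was not tested. Reads were amplified without molecular identifiers, so limits from reads cover counting error only.

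**Figure D1:**
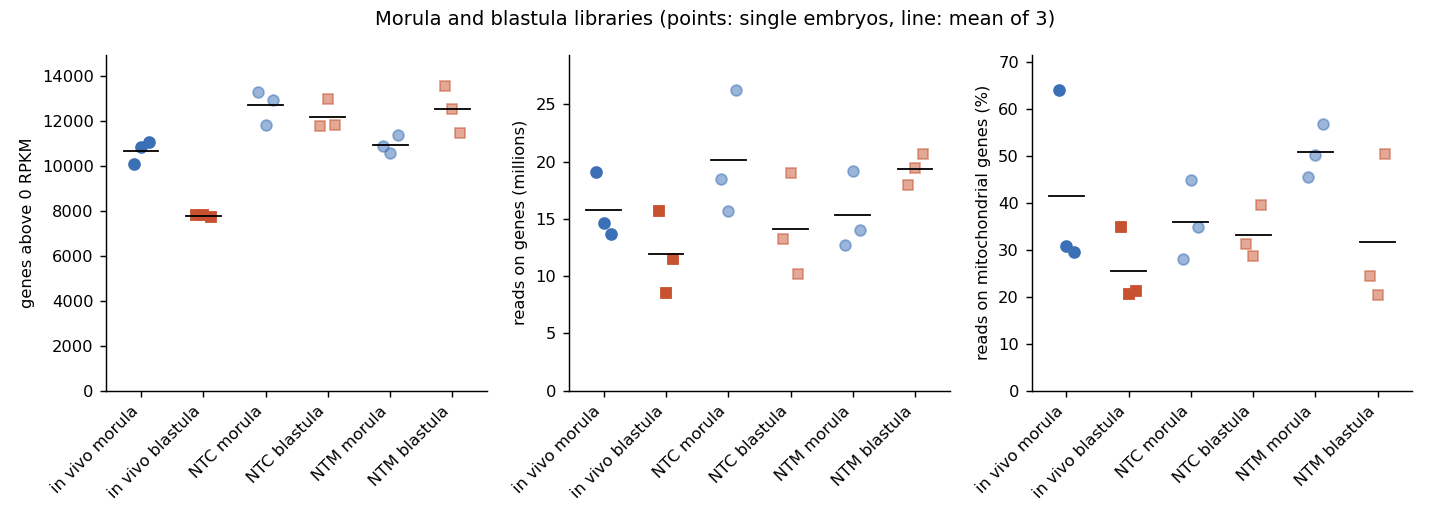
Genes above 0 RPKM, reads on genes (axis scaled as it is labelled) and the percentage of reads on mitochondrial genes in the morula (circles) and blastula (squares) libraries of in vivo, NTC and NTM embryos, 1 point per embryo, with a line at the mean of 3. The 3 in vivo blastulas, at 7730 to 7808 genes, lie below each of the other 15 libraries, and in vivo morula 1 has the highest mitochondrial share.

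Between in vivo morulas and blastulas, 69 genes changed, 30 upward and 39 downward. Among the genes that rose were Spp1, Dppa1, Lgals1, Tmsb4x, Sdc4 and Krt8, and among those that fell were Cthrc1, Bex6, Nppb, Hhex and Foxa1. A call needed both an adjusted p below 0.05 by limma, with the Benjamini-Hochberg method, and a difference of 1 or more on the log2 scale in either direction. The 8619 genes with a mean of at least 0.5 RPKM were tested, so 0.801% were called, 0.348% upward and 0.452% downward. The values of the 3 blastulas and 3 morulas did not overlap for any of the 69, while over all genes tested the blastulas lay wholly above the morulas for 7.21% and wholly below for 19.8%. An unadjusted p under 0.05 was reached by 1480 genes (17.2%). With 3 libraries against 3, an exact permutation test of a single gene cannot go below p = 0.10.

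How many genes pass depends on how the spread is estimated. A fit over all 18 in vivo libraries of 6 stages, which share 1 estimate of the spread, called 325 genes upward (3.77%) and 773 downward (8.97%). All 69 were among them. The median standard deviation between replicates on the log2 scale was 1.02 in the in vivo blastulas and 0.71 in the in vivo morulas. Whether the shared estimate understates the spread of the blastulas, and so calls too many genes, was not tested. With 8-cell and morula libraries as 1 reference group, chosen after seeing the data, 3.12% of genes were called upward and 5.53% downward, among them all 30 and 36 of the 39. Without morula 1, 2 genes were called, and without morula 2 or morula 3 limma called none, with 1126 and 1117 genes at an unadjusted p under 0.05 and 2 morulas left in the group. The median log2 fold change of all genes tested was -0.41, with both directions of change read against it, and median-ratio scaling of the libraries moved this median to -0.26. Calls upward then made up 57.3% of all calls, against 43.5% on the deposited scale. Both fits are given below as counts, the fit of 6 libraries first, and a gene called in the fit of 18 libraries alone is named as such. The counts of each list are to be read against the shares of all genes tested. These were 0.348% upward and 0.452% downward in the fit of 6, and 3.77% and 8.97% in the fit of 18. For an unadjusted p under 0.05 in the fit of 6 the share was 17.2%.

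**Figure D2:**
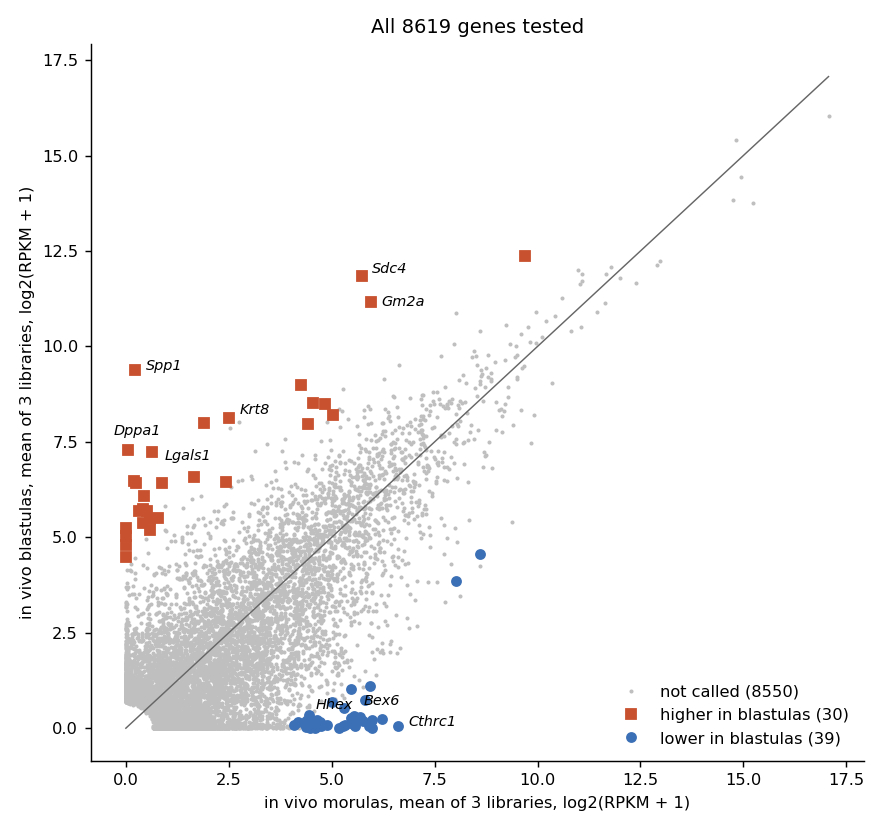
Mean of the 3 in vivo morulas (horizontal axis) against the mean of the 3 in vivo blastulas (vertical axis) for the 8619 genes tested, both as log2(RPKM + 1), with squares for the 30 genes called upward, circles for the 39 called downward and a line of equal values. Most of the genes called downward lie near 0 in the blastulas, and genes called upward also include abundant ones such as Sdc4 and Gm2a.

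On the low side of the comparison, most called genes were close to absent. The mean of the blastulas was under 1 RPKM for 35 of the 39 genes that fell, and the mean of the morulas for 16 of the 30 that rose. Adh1, Slc22a5 and Adap2os were at 0 in all 3 morulas, and Tmigd1, Hcrt, D130040H23Rik and Gm21028 at 0 in all 3 blastulas. These 7 were chosen by that pattern after their values were seen. At the depth of these libraries, 3 reads on a transcript of 2000 bases equal 0.0787 to 0.175 RPKM. Log2 fold changes below are differences on the log2(RPKM + 1) scale, which understates the change of such genes.

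Spp1 had the largest rise, and Sdc4, Tspan8 and Gm2a rose as well. Spp1 encodes osteopontin, a secreted protein that binds integrins. It stood at 0.318, 0 and 0.222 RPKM in the morulas, 10, 0 and 5 reads, and at 336, 1105 and 803 RPKM in the blastulas. The log2 fold change was 9.16 (SE 0.73, adjusted p = 0.00376), and the highest morula and the lowest blastula were far apart. Sdc4, a transmembrane heparan sulfate proteoglycan, was already present in the morulas at 23.2, 52.4 and 113 RPKM and reached 1958, 5322 and 4671 RPKM in the blastulas (log2 fold change 6.11, SE 0.65, adjusted p = 0.00842). The tetraspanin Tspan8 went from 2.10, 1.12 and 6.82 RPKM to 69.6, 428 and 536 RPKM, with blastula 1 well below the other blastulas but far above each morula. Its log2 fold change was 6.09 (SE 0.96, adjusted p = 0.0333). Gm2a, the activator protein that lysosomes need to degrade GM2 ganglioside, had the smallest standard error of these 4 genes. It measured 38.1, 73.3 and 80.7 RPKM in the morulas and 1589, 2794 and 2729.9 RPKM in the blastulas (log2 fold change 5.21, SE 0.49, adjusted p = 0.00658).

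The regions before the start sites of the 3 genes with the smallest adjusted p among the named rises that have a window outside the annotated transcript are shown here, with that of Bex6, the largest named fall with such a window. They are RefSeq sequences, 250 bases 5′ of the first listed start site, in lower case. Capitals mark any of 7 motifs on either strand. These are the letters GGAATG bound by TEAD factors and GCCNNNGGC bound by AP-2 factors such as Tfap2a. Searched as well were TGANTCA of AP-1 and AGATAA of GATA factors. The last were GGGCGG as the GC box, TATAAA as the TATA box and CACGTG as the E-box.
Spp1 (GRCm38.p6, chr5:104434861-104435110, plus strand): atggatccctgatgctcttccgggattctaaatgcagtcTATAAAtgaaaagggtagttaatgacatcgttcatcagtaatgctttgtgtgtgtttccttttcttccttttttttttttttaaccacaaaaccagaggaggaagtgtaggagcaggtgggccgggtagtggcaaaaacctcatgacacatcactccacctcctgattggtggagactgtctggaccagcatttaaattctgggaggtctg
Dppa1 (GRCm38.p6, chr11:46629275-46629524, minus strand): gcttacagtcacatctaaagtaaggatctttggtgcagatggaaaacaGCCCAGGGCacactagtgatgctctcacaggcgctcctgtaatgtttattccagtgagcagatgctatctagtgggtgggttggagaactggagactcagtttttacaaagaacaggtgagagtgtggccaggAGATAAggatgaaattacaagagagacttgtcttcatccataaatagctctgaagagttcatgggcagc
Gm2a (GRCm38.p6, chr11:55097735-55097984, plus strand): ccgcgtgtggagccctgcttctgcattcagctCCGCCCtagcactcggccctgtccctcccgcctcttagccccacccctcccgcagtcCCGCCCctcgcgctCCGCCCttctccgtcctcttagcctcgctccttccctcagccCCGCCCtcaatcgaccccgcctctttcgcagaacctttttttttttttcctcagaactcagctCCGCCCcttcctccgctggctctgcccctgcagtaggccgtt
Bex6 (GRCm38.p6, chr16:32179550-32179799, plus strand): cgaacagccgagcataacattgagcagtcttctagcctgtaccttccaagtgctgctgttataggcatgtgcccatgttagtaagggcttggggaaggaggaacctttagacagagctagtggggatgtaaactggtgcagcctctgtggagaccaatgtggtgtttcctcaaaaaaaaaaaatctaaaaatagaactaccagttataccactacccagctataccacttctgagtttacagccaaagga
The window of Spp1 held TATAAA 211 bases before the start, that of Dppa1 an AP-2 match at 202 and AGATAA at 69 bases, and that of Gm2a 5 GC boxes in reverse orientation. None of these letters occurred in the window of Bex6. Of the called genes, 23 of the 30 that rose and 24 of the 39 that fell had a sequence in the RefSeq table. AP-2 letters occurred in 6 of the 23 and 3 of the 24, against 20.3% of the 6392 tested genes with a sequence and 13.6% of all 27025 genes in that table. GATA letters occurred in 4 of the 23 and 3 of the 24, against 5.48% of the tested genes, and TEAD letters in 2 of the 23 and 5 of the 24, against 10.2%. These are matches of letters and no test was made of them. The median GC content was 58% for the genes that rose, 56% for those that fell and 60% for the tested genes.

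Krt8, Tfap2a, Slc9a3r1, Lgals1 and Tmsb4x rose too. Krt8, an intermediate filament protein of the trophectoderm, measured 0.378, 11.9 and 9.44 RPKM in the morulas and 126, 374 and 459.5 RPKM in the blastulas (log2 fold change 5.62, SE 0.99, adjusted p = 0.0449). Morula 1 was the lowest of the 6 for Krt8, as it was for its filament partner Krt18, at 8.77, 36.5 and 66.7 RPKM in the morulas. Krt18 then measured 208, 491 and 559 RPKM in the blastulas, without overlap, but missed the threshold (log2 fold change 3.73, SE 0.81, adjusted p = 0.0758) and passed it in the fit of 18 libraries. Tfap2a, a transcription factor of trophoblast and ectoderm, gave 2 reads in morula 1 and none in the other morulas, and 13.6, 117 and 30.6 RPKM in the blastulas (log2 fold change 5.23, SE 0.93, adjusted p = 0.0449). Slc9a3r1, a scaffold that ties membrane transporters to ezrin in microvilli, rose from 0, 0.142 and 1.18 RPKM to 36.5, 93.4 and 85.4 RPKM (log2 fold change 5.64, SE 0.80, adjusted p = 0.0235). Lgals1, the beta-galactoside-binding lectin galectin-1, rose from 1.90, 0 and 0.274 RPKM to 97.3, 175 and 191 RPKM (log2 fold change 6.59, SE 0.78, adjusted p = 0.0151). Tmsb4x, which binds monomeric actin, rose from 0.268, 0 and 0.320 RPKM to 48.4, 57.3 and 216 RPKM (log2 fold change 6.17, SE 0.84, adjusted p = 0.0207). Krt8, Krt18 and Tmsb4x have near-identical processed copies in the genome, and reads could be split among them.

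Dppa1, a gene of the preimplantation embryo and of pluripotent cells, gave 1 read in each morula, and 162, 119 and 196 RPKM in the blastulas (log2 fold change 7.24, SE 0.71, adjusted p = 0.00658). Upp1, the phosphorylase that breaks down uridine, went from 0, 1.88 and 1.19 RPKM to 39.4, 61.9 and 254 RPKM (log2 fold change 5.55, SE 0.93, adjusted p = 0.0391), with blastula 3 well above the other blastulas. Pdcd4, an inhibitor of the translation initiation factor eIF4A, rose from 0.0616, 0.320 and 0.658 RPKM to 31.3, 45.8 and 103 RPKM (log2 fold change 5.35, SE 0.80, adjusted p = 0.0304). The smallest rise was that of Ptp4a1, a tyrosine phosphatase, and it had the smallest standard error of the 69. It measured 819, 822 and 831 RPKM in the morulas and 5149, 6181 and 4572 RPKM in the blastulas (log2 fold change 2.67, SE 0.27, adjusted p = 0.00658). Wtap, of the complex that methylates adenosine in mRNA, was similarly even, at 23.8, 36.9 and 35.6 RPKM against 281, 310.4 and 292 RPKM. Ptp4a1 and Wtap were chosen after their values were seen.

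**Figure D3:**
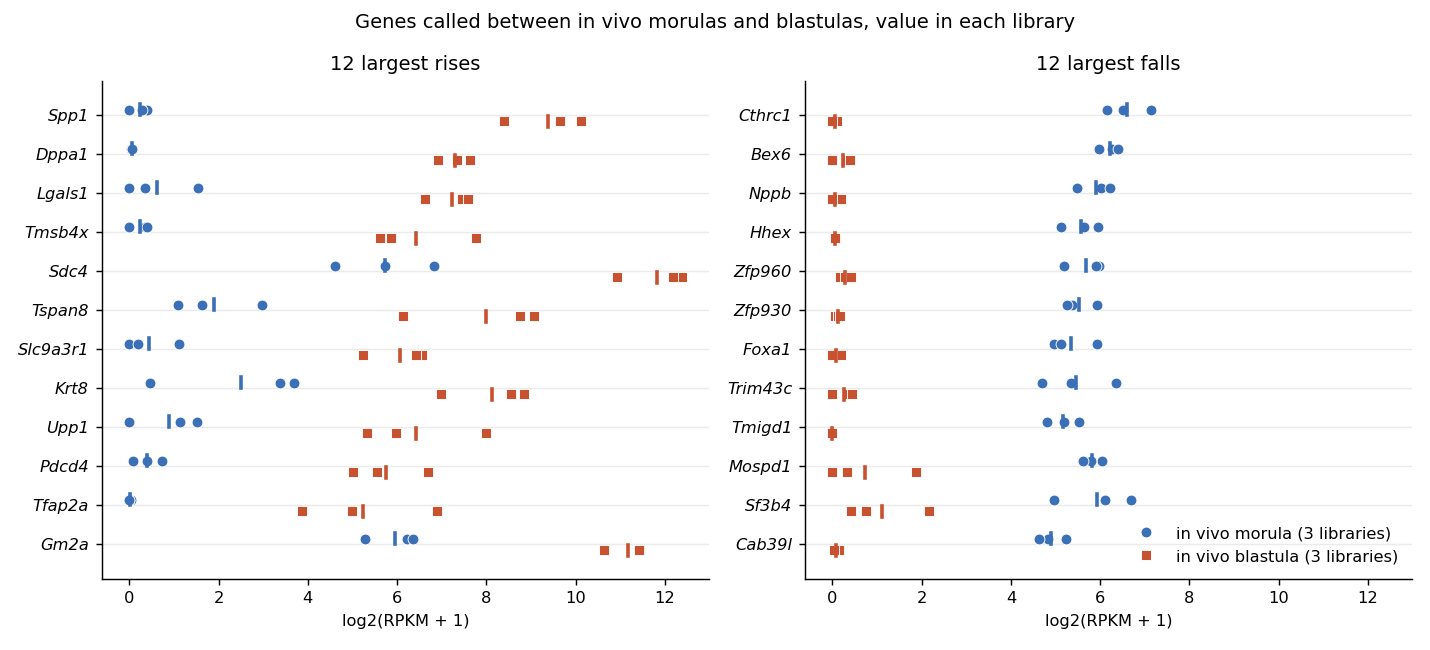
Values of the 12 genes with the largest rises (left) and the 12 with the largest falls (right) in each in vivo morula (circles) and blastula (squares), as log2(RPKM + 1), with short vertical lines at the means of 3. The 3 blastulas and 3 morulas do not overlap for any of the 24 genes, and in the right panel 10 of 12 genes lie under 1 RPKM in each blastula.

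Cthrc1 had the largest fall, and Nppb, Tmigd1 and Bex6 also fell. Cthrc1, a secreted protein with a collagen triple helix repeat, measured 70.5, 141 and 89.9 RPKM in the morulas, and 1, 1 and 0 reads were left in the blastulas (log2 fold change -6.55, SE 0.74, adjusted p = 0.0117). Nppb, the natriuretic peptide B precursor, stood at 43.6, 64.1 and 73.0 RPKM in the morulas and gave 0, 1 and 0 reads in the blastulas (log2 fold change -5.84, SE 0.74, adjusted p = 0.0202). Both were thus at or close to the detection limit after the step. Tmigd1, a membrane protein of the immunoglobulin family, fell from 27.0, 45 and 35.7 RPKM to 0 in all 3 blastulas, at least 153-fold lower when 3 reads in the shallowest blastula are taken as the limit (adjusted p = 0.0235). Bex6, of the brain-expressed X-linked gene family although its locus is on chromosome 16, fell from 76.4, 83.1 and 61.8 RPKM to 3, 2 and 0 reads (log2 fold change -5.98, SE 0.72, adjusted p = 0.0161).

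Hhex, Foxa1, Zfp960, Zfp930, Trim43c, Trim43b, Mospd1, Sf3b4 and Cab39l fell as well. Hhex, a homeobox factor of endoderm and liver, measured 33.7, 60.8 and 48.8 RPKM in the morulas and gave 1 read in each blastula (log2 fold change -5.50, SE 0.74, adjusted p = 0.0207). Foxa1, a forkhead factor of endoderm, measured 30.2, 59.9 and 33.7 RPKM and then 0.0399, 0.147 and 0 RPKM (log2 fold change -5.25, SE 0.76, adjusted p = 0.0235). Foxa1 had been higher still in the 8-cell embryos, at 377, 165 and 266 RPKM, whereas Hhex had been lower there, at 1.24, 30.7 and 15.2 RPKM. Zfp960 fell from 61.6, 59.2 and 35.7 RPKM to 0.119, 0.219 and 0.327 RPKM (adjusted p = 0.0207) and Zfp930 from 40.5, 37.3 and 60.1 RPKM to 0.0481, 0.0883 and 0.132 RPKM (adjusted p = 0.0207). Both are zinc finger genes of large families with similar copies, so their reads could be split. The same limit holds for Trim43c, a member of the Trim43 cluster, at 25.1, 81.3 and 39.4 RPKM in the morulas and 0.256, 0.352 and 0 RPKM in the blastulas (log2 fold change -5.21, SE 0.80, adjusted p = 0.0328). Its neighbour Trim43b, which lies outside the rule for named genes, fell from 148, 328 and 348 RPKM to 9.03, 7.80 and 34.3 RPKM (adjusted p = 0.0483). Trim43c and Trim43b had both been higher in each 8-cell embryo than in any morula. Mospd1 fell from 64.8, 54.9 and 47.7 RPKM to 2.69, 0 and 0.251 RPKM (adjusted p = 0.0337), after 161 to 210 RPKM in the 8-cell embryos. Sf3b4, a subunit of the SF3b splicing complex, fell from 30.4, 102 and 68.5 RPKM to 3.47, 0.324 and 0.685 RPKM (adjusted p = 0.0449). Cab39l, a scaffold of the kinase LKB1, fell from 27.5, 23.6 and 36.8 RPKM to 0.0419, 0.115 and 0.0287 RPKM (adjusted p = 0.0329). For the genes of this paragraph, blastula 1 held most of what was left of Mospd1 and Sf3b4, and the groups did not overlap.

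Of the trophectoderm list (17 genes, 13 tested), Krt8 and Tfap2a rose, no gene fell, and the median log2 fold change was 1.10 against -0.41 for all genes tested. In the fit of 18 libraries 5 rose, Krt18, Id2 and Fgfr2 being added, and Hand1 fell. The sums of the list were 252, 348 and 464 RPKM in the morulas and 668, 1553 and 1904 RPKM in the blastulas, without overlap. Krt8 and Krt18, and in blastula 3 also Id2, held much of the blastula sums, so the sums do not describe the other members. Of the 13, 5 lay wholly above the morulas and 1 wholly below, against 7.21% and 19.8% of all genes tested. Id2, an inhibitor of helix-loop-helix factors, measured 10.5, 0.860 and 30.4 RPKM and then 37.9, 188 and 494 RPKM. Hand1, a factor of later trophoblast giant cells, measured 3.68, 10.6 and 9.12 RPKM in the morulas and then 0, 0.0585 and 0.0872 RPKM. Of the 13 tested members, 8 were higher in the blastulas and 5 lower. Besides Hand1, the lower members were Tfap2c (log2 fold change -1.29), Tead4 (-1.17), Eomes (-0.24) and Klf5 (-0.08), without a call in either fit. Cdx2, which specifies the trophectoderm, measured 22.1, 7.51 and 19.4 RPKM and then 25.3, 75.8 and 10.2 RPKM, with overlap (log2 fold change 0.83, SE 0.90, adjusted p = 0.620). Gata3 measured 9.58, 18.8 and 38.9 RPKM and then 64.7, 24.0 and 49.6 RPKM, also with overlap (log2 fold change 1.10, SE 0.79, adjusted p = 0.488). Both factors were at most 2.17 RPKM in the 8-cell embryos.

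Genes of the epiblast and of pluripotent cells (18 listed, 17 tested) did not move one way. None was called in the fit of 6 libraries, with 4 at an unadjusted p under 0.05, and the median log2 fold change was -0.20. In the fit of 18 libraries Sox2 and Dppa5a rose, and Klf4 and Esrrb fell. Sox2 measured 1.43, 1.23 and 0.284 RPKM in the morulas and 19.2, 4.89 and 15.2 RPKM in the blastulas. Klf4 measured 133, 104 and 106 RPKM and then 4.57, 60.8 and 0.171 RPKM, with blastula 2 nearer to the morulas than to the other blastulas. Nanog measured 11.7, 61.1 and 50.8 RPKM and then 46.7, 113 and 50.2 RPKM (adjusted p = 0.544). Pou5f1 measured 3.69, 12 and 9.27 RPKM and then 2.86, 0.104 and 3.33 RPKM, lower in each blastula, with an adjusted p of 0.358.

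The primitive endoderm genes (18 listed, 8 tested) differed most among the blastulas themselves. None was called in either fit, with 2 at an unadjusted p under 0.05, and the median log2 fold change was 0.95. Gata6 measured 51.4, 41.4 and 45 RPKM in the morulas and 39.7, 2.49 and 1.39 RPKM in the blastulas. Gata4 measured 0.336 RPKM or less in each morula and 0, 5.21 and 34.1 RPKM in the blastulas, and Sparc 0.543 RPKM or less and then 3.67, 0.868 and 83.7 RPKM. Blastula 1 was thus high in Gata6 and lacked Gata4, and blastula 3 was the reverse. Sox17 was at 0 in the 3 morulas and at 0.0133, 1.98 and 1.68 RPKM in the blastulas. Pdgfra stayed at 0.263 RPKM or less in all 6.

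The lists of compaction, cavitation and polarity held few called genes. Of 24 tested genes of junctions and fluid transport none was called in the fit of 6 libraries (2 at an unadjusted p under 0.05), and Epcam alone rose in the fit of 18. Epcam, an epithelial adhesion molecule, measured 49.6, 98.7 and 108 RPKM and then 316, 405 and 236 RPKM. The summed level of the list was 195 to 464 RPKM in the morulas and 753 to 993 RPKM in the blastulas. Aqp3, a water and glycerol channel, measured 11.2, 72.7 and 52.8 RPKM and then 56.4, 10.2 and 46.8 RPKM (log2 fold change -0.22, SE 0.96, adjusted p = 0.922), and the sign of its difference turned without morula 2, morula 3 or blastula 2. Atp1b1, the beta subunit of the sodium pump, was at or below 2.16 RPKM in all 6 libraries. Of 17 polarity genes, Mpp5, the apical scaffold Pals1, rose from 0.0857, 0.0495 and 3.40 RPKM to 30.9, 50.1 and 55.2 RPKM (log2 fold change 4.72, SE 0.86, adjusted p = 0.0483). Moesin (Msn) was added in the fit of 18 libraries.

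The list of the actin cytoskeleton also holds the galectins Lgals1 and Lgals3, which are lectins. Among its 13 tested genes, Lgals1 and the actin-binding Tmsb4x rose and none fell, with a median log2 fold change of 1.33. Tmsb10 was added in the fit of 18 libraries, at 4.48, 9.20 and 9.06 RPKM in the morulas and 86.3, 112 and 92.2 RPKM in the blastulas. The Hippo pathway, whose kinases hold the coactivator Yap1 out of the nucleus in inner cells, had a median log2 fold change of -1.05 over 16 tested genes. No member was called in the fit of 6 libraries (4 at an unadjusted p under 0.05), and in the fit of 18 Wwc2 rose while Mob1a, Stk4 and Amotl2 fell. Mob1a, a coactivator of the Lats kinases, measured 15.2, 7.29 and 5.26 RPKM and then 0.239, 0.195 and 0.381 RPKM. Stk4, the upstream kinase Mst1, measured 1.95, 8.96 and 3.23 RPKM and then 0.0435, 0.0399 and 0.0149 RPKM.

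Genes of energy metabolism were called upward in the fit of 18 libraries and not in the fit of 6. Of 15 tested glycolysis genes, Gapdh, Slc2a3, Tpi1 and Pkm rose there and none fell, while the fit of 6 libraries called none (5 at an unadjusted p under 0.05). Slc2a3, the glucose transporter Glut3, measured 0.406, 0.913 and 3.40 RPKM and then 47.4, 20.8 and 24.5 RPKM (log2 fold change 3.72, SE 0.82, adjusted p = 0.0792). Gapdh measured 0.368, 7.94 and 15.1 RPKM and then 83.6, 347 and 433 RPKM, and it has many processed copies. Of 74 nuclear genes of the respiratory chain, 8 rose in the fit of 18 libraries, 25 lay wholly above the morulas and 3 wholly below, against 7.21% and 19.8% of all genes tested. The summed level was 1180, 2131 and 2468 RPKM in the morulas and 3161, 4265 and 4973 RPKM in the blastulas. The median log2 fold change was 0.74, as it was for glycolysis, and none passed in the fit of 6 libraries (13 at an unadjusted p under 0.05). Cox7b, a subunit of cytochrome c oxidase, measured 4.80, 3.48 and 7.17 RPKM and then 28.6, 34.8 and 88.4 RPKM. The 12 tested genes of the mitochondrial genome did not follow, with a median of -0.63. mt-Nd2 fell in the fit of 18 libraries, from 69181, 34384 and 23512 RPKM to 14219, 12172 and 15056 RPKM. mt-Co1 measured 46175, 24402 and 21087 RPKM and then 48041, 41676 and 40178 RPKM, so morula 1, the library with the highest mitochondrial share, overlapped the blastulas.

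Ribosomal protein genes had a median log2 fold change of 0.52 over 78 tested genes, 61 of them positive, against 3448 of all 8619 genes. Their summed level was 14551, 28476.5 and 27335 RPKM in the morulas and 27557, 33942 and 34439 RPKM in the blastulas. The groups overlapped, with blastula 1 between morulas 2 and 3, and morula 1, the library with the highest mitochondrial share, was far below the rest. In the fit of 18 libraries Rpl32 and Rpl36 rose and none of the 78 fell, where 3.77% of all genes tested rose and 8.97% fell. In the fit of 6, 6 of the 78 had an unadjusted p under 0.05, against 17.2% of all genes tested. The same shares stand beside the counts of the lists that follow. The 74 tested mitochondrial ribosomal proteins went both ways, with a median of -0.15, 2 that rose (Mrpl28 and Mrpl23) and 5 that fell in the fit of 18. Mrpl16 measured 15.9, 68.0 and 71.9 RPKM and then 0.908, 11.5 and 0.698 RPKM. Of 36 proteasome genes none was called in either fit, with 2 at an unadjusted p under 0.05. Of 6 amino acid transporters Slc6a14 and Slc1a5 rose in the fit of 18, and of 12 sterol synthesis genes Srebf2 rose and Fdft1 fell there. Of 19 genes of endocytosis and the lysosome, Lrp2 rose there and Tfrc, Gla, Lamp2 and Npc2 fell. Of 10 imprinted genes Slc38a4 rose there, of 3 tested 2-cell genes Zfp809 fell, and none of 7 stress genes was called. None of these lists had a call in the fit of 6 libraries, where 2, 2, 4, 2, 1 and 0 genes of them, in the order named, had an unadjusted p under 0.05.

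Cell cycle and cell death genes were called in the fit of 18 libraries alone, which called 8.97% of all genes tested downward and 3.77% upward. Of 33 tested cell cycle genes, 4 fell there (Ccne1, Cdc20, Bub1 and Ccna2), none rose, and the median log2 fold change was -0.65. Of the 33, 6 lay wholly above the morulas and 4 wholly below, against 7.21% and 19.8% of all genes tested. Ccne1, the cyclin of the entry into S phase, measured 71.5, 117 and 172 RPKM and then 28.1, 2.37 and 23.7 RPKM. Of 15 tested genes of apoptosis and p53 13 were lower, where 5171 of all 8619 genes were, with a median of -0.94, and Phlda3 and Sesn2 fell while Apaf1 rose. Phlda3, a p53 target that restrains Akt, measured 6.26, 50.5 and 147 RPKM and then 0.286, 2.47 and 0.335 RPKM. Neither list had a call in the fit of 6 libraries, with 7 and 3 genes at an unadjusted p under 0.05. Of 8 tested oocyte genes 7 were lower, with a median of -1.34 against -0.41 for all genes. Npm2, a histone chaperone of the oocyte, fell in the fit of 18 from 17.1, 5.82 and 8.44 RPKM to 0, 0.117 and 0 RPKM.

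The lists of chromatin and signalling regulators had calls in the fit of 18 libraries alone. Of 18 tested genes of DNA and histone methylation, 3 rose there and 1 fell. Of 12 tested genes of FGF, nodal and BMP signalling, 2 rose there and none fell. All genes tested rose in 3.77% and fell in 8.97% of cases in that fit. Neither list had a call in the fit of 6, with 4 and 2 genes at an unadjusted p under 0.05. Uhrf1, which guides Dnmt1 to replicating DNA, measured 0.0123, 0.657 and 0.842 RPKM and then 15.1, 28.6 and 28.1 RPKM (log2 fold change 4.05, SE 0.78, adjusted p = 0.0546), and with Tet2 and Tet1 it rose in the fit of 18 libraries. Suz12, a core subunit of Polycomb complex 2, fell there from 401, 386 and 471 RPKM to 167, 99.95 and 205 RPKM. Spry2, a feedback inhibitor of FGF signalling, measured 1.59, 0.589 and 3.47 RPKM and then 23.3, 64.8 and 102 RPKM and rose there with Fgfr2. Of 25 tested genes of phosphatidylinositol metabolism and signalling, Pikfyve alone rose in the fit of 18, none fell, and the fit of 6 called none. In the fit of 6, 4 had an unadjusted p under 0.05, Pikfyve higher and 3 lower (Pi4k2a, Cds1 and Pip4k2c). Of the 25, 9 were higher and 16 lower, where 5171 of all 8619 genes were lower. The median log2 fold change was -0.18 against -0.41 for all genes tested. The blastulas lay wholly above the morulas for 1 of the 25 and wholly below for 5, against 7.21% and 19.8% of all genes tested. Pikfyve, the kinase that makes phosphatidylinositol 3,5-bisphosphate, measured 1.58, 1.28 and 1.24 RPKM and then 8.28, 18.4 and 29.5 RPKM. Among genes that the study names and that the list thus does not test independently, Kif3a measured 8.65, 0.304 and 11 RPKM and then 0.0178, 0 and 0 RPKM (adjusted p = 0.238). Tgfbr1 and Tfcp2l1 were not called, and Cabin1, too low to be tested, was at 0 in the 3 blastulas and at most 1.42 RPKM in the morulas.

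**Figure D4:**
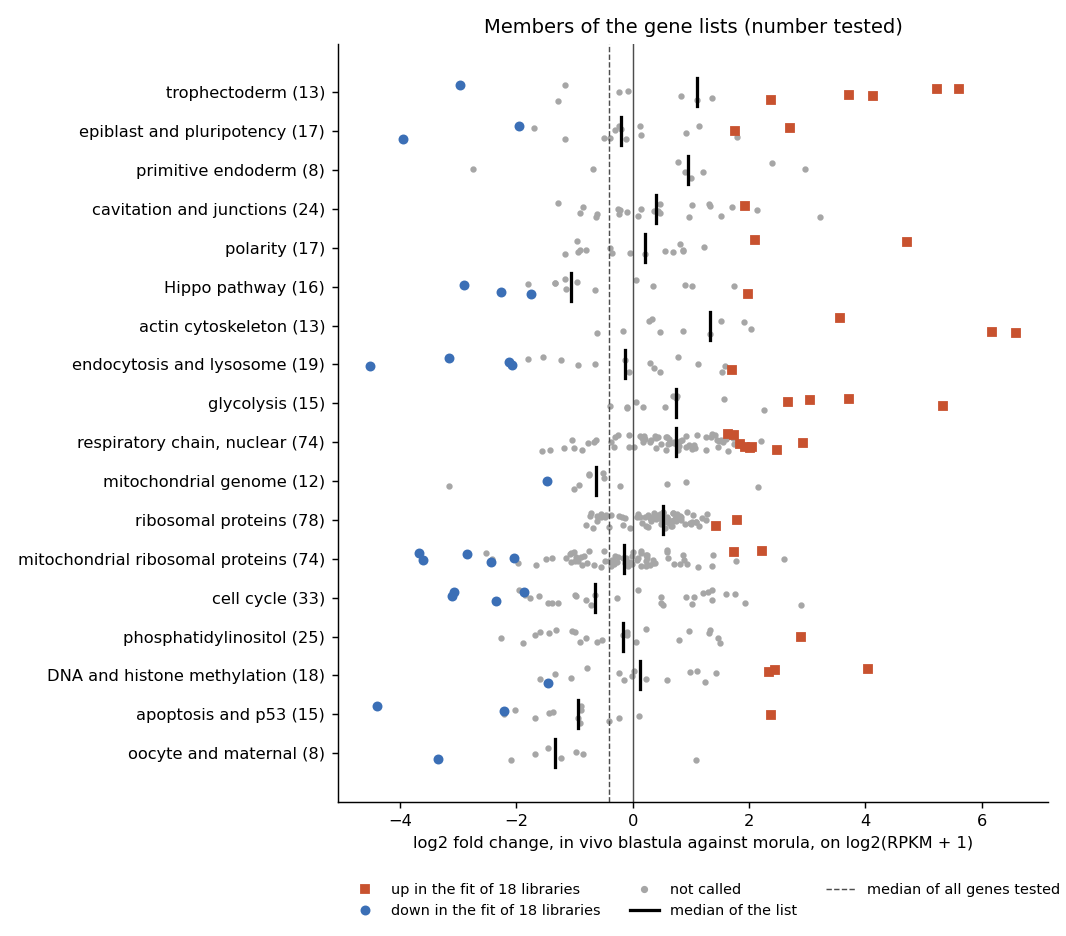
Log2 fold change of each tested member of 18 gene lists between in vivo blastulas and morulas, with squares and circles for genes called upward and downward in the fit of 18 in vivo libraries, a bar at the median of each list, a solid line at 0 and a dashed line at the median of all genes tested (-0.41). The medians of trophectoderm (1.10) and of the actin list with its galectins (1.33) lie to the right, and those of the Hippo list (-1.05) and oocyte genes (-1.34) to the left.

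Transcripts of other cell types were near absent in these embryos. All 13 cumulus and granulosa genes were at 0 in the 6 libraries, 7 of 8 fibroblast genes were at 0 with a sum of at most 0.0321 RPKM, and 8 of 10 oviduct and uterus genes were at 0 with a sum of at most 3.59 RPKM. Of 7 blood genes 5 were at 0, and C1qa, a complement component of macrophages, gave 2.49 and 12.7 RPKM in morulas 2 and 3 and 0 elsewhere, and was called downward in the fit of 18 libraries. Transcripts of the Y chromosome set the libraries apart within both groups: Ddx3y measured 0.212, 55.6 and 38.8 RPKM in the morulas and 0.0122, 29.0 and 35.8 RPKM in the blastulas. Xist, the RNA of the inactive X chromosome, was at or below 0.129 RPKM in all 6, including the libraries with little Ddx3y. In NT libraries of these stages it was at 0.224 to 7.80 RPKM.

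In NT embryos most of the same genes moved in the same direction, on other libraries. Of the 30 genes that rose in vivo, 29 were tested in NTC embryos, where 28 had a positive difference (56.3% of all genes did) and 16 rose, and in NTM embryos 27 of 29 were positive (75.9% of all genes) and 15 rose. None was called in the opposite direction. Of the 39 that fell, 35 were lower in NTC (43.7% of all genes) and 14 fell, and 30 were lower in NTM (24.1% of all genes) and 4 fell, while Mospd1 rose there. The shares of all genes by sign are over genes tested both in vivo and in that kind of NT embryo. Over all genes tested in the NT embryos, 7.16% of 10044 were called in NTC and 4.22% of 9823 in NTM. By direction, 4.54% were called upward and 2.62% downward in NTC, and 3.73% and 0.499% in NTM. Lgals1 rose by a log2 fold change of 6.20 in NTC and 6.69 in NTM, beside 6.59 in vivo, and Dppa1, Tspan8, Krt8 and Tfap2a also rose in both.

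The test of the difference between the in vivo and the NT step called 23 genes against NTC (0.236% of 9747) and 62 against NTM (0.647% of 9583), and 8 genes were shared. The in vivo libraries are the same in both tests. The in vivo change was the more positive in 3 genes (0.0308%) and the more negative in 20 (0.205%) against NTC, and in 7 (0.073%) and 55 (0.574%) against NTM. Under median-ratio scaling it was the more negative in 24 of 37 and in 14 of 33, so the direction against NTM depended on the scale. The median log2 fold change of the genes tested in vivo was -0.41 there. Over those also tested in the NT embryos, it was 0.14 in NTC and 0.57 in NTM. Pdcd4 was among the 8 shared genes. It stayed at or below 0.576 RPKM in the NTC and 1.74 RPKM in the NTM blastulas, beside 31.3 to 103 RPKM in vivo. It was below the filter on low values in NT embryos alone and entered both tests through the in vivo blastulas, where it is high, so its differences of 4.97 and 4.48 are given as values only. Ptp4a1 rose in vivo only, with log2 changes of -0.19 in NTC and -1.02 in NTM, and the difference was called against both. Gm2a rose in all 3 kinds of embryo, and more in vivo than in NTC by 3.66 (adjusted p = 0.0182). Cab39l and Zfp930 fell in vivo and were not called in either kind of NT embryo. In the NTC blastulas Cab39l measured 38.9, 27.0 and 15.9 RPKM and in the NTM blastulas 21.9, 32.0 and 14.9 RPKM, against 0.115 RPKM or less in vivo, with differences of -5.69 (adjusted p = 0.0137) and -4.93 (adjusted p = 0.0265).

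Where the NT change of a gene missed the threshold, its difference from the in vivo change did not always pass. Spp1 measured 243, 21.4 and 3.39 RPKM in the NTC blastulas and 124 RPKM in 1 NTC morula, and its difference of 8.33 had an adjusted p of 0.0724. In NTM embryos Spp1 was called upward (log2 fold change 4.68, adjusted p = 0.0318), and its difference of 4.48 was not called (adjusted p = 0.137). Hhex kept 5.65 to 47.2 RPKM in NTC and 7.61 to 57.7 RPKM in NTM blastulas, and its difference was called against NTM (-4.99, adjusted p = 0.0495) and not against NTC (-5.07, adjusted p = 0.0596). Cthrc1 was low in NT morulas as well, at 0 to 10.1 RPKM in NTC and 0.563 to 2.13 RPKM in NTM, beside 70.5 to 141 RPKM in vivo. Its difference was -6.72 against NTM (adjusted p = 0.00376) and -4.80 against NTC (adjusted p = 0.0611).

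**Figure D5:**
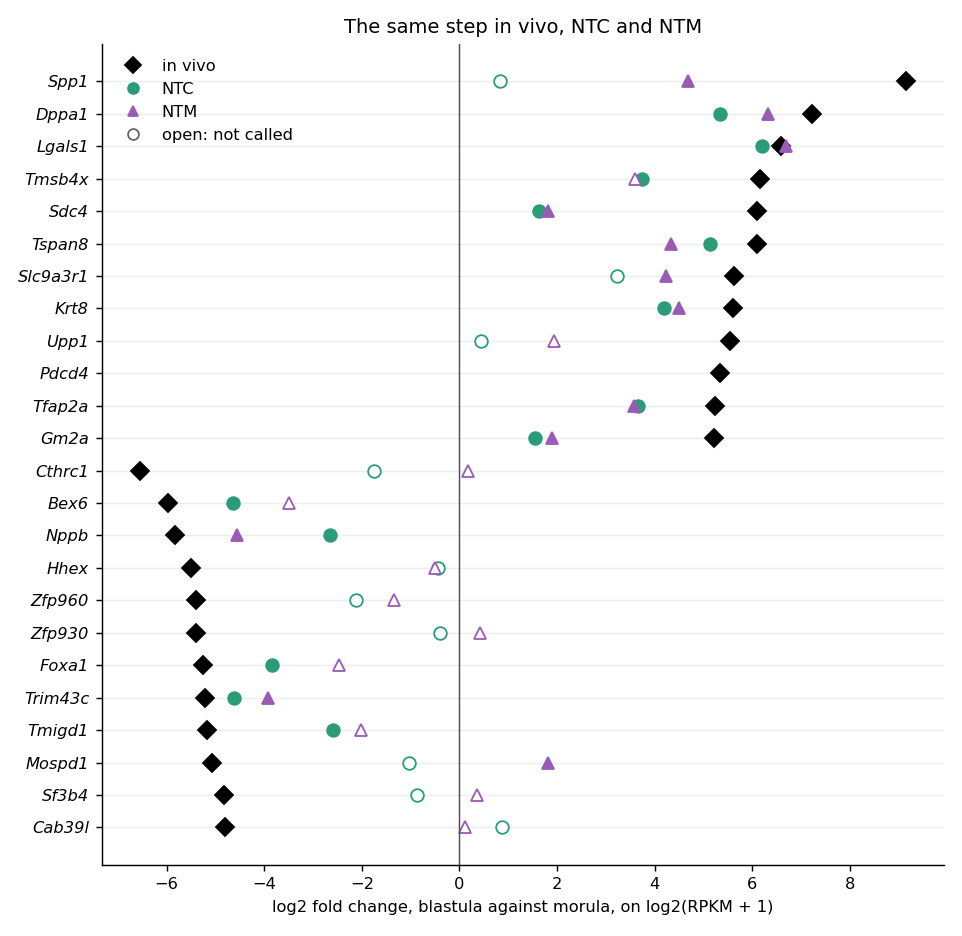
Log2 fold change from morula to blastula of the 24 named genes in vivo (diamonds), in NTC (circles) and in NTM (triangles) embryos, filled where the gene was called and open where it was not, on log2(RPKM + 1). Lgals1 lies at 6.20 to 6.69 in all 3, whereas Cab39l lies at -4.81 in vivo and at 0.88 and 0.12 in NTC and NTM, and Pdcd4 was too low in NT embryos to be tested there.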

How the data were processed

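Single embryos were lysed, ERCC RNA was added, and poly(A)-tailed cDNA was amplified and sequenced as paired reads. The authors aligned the reads and counted them per gene, and deposited 1 table of RPKM values, with no counts. Their methods name TopHat, Bowtie2 and HTSeq, whereas the submitters' processing notes name Bowtie 0.12.2 and the build mm8, so the build is uncertain and gene positions were taken from GENCODE M21. Whole reads were recovered from the steps of the RPKM values for 26675 genes (99.7% of values above 0 were whole within 0.01) and used for depth and detection limits. Genes with a mean of at least 0.5 RPKM were tested with limma 3.58.1 (R 4.3.3, trended variance) on log2(RPKM + 1), at adjusted p under 0.05 and an absolute log2 fold change of at least 1. The in vivo comparison used 6 libraries, and the difference between in vivo and NT steps was an interaction term over 12 libraries. Named genes were the 12 largest rises and 12 largest falls among called protein-coding genes with a full symbol and no overlap, defining genes of the lineages, genes that the study names, and up to 4 members of each of 31 lists with the smallest p. Some genes outside this rule are said to be so. Others named outside it include Trim43b, Pdgfra and further list members called in the fit of 18 libraries, such as Id2 and Fgfr2. Members and lists were chosen with earlier results of these data known. Pooling 8-cell with morula libraries, leaving out mitochondrial reads and the expected number of genes at equal depth were alternatives chosen after seeing the data. The study describes the 3 embryos of a group as biological replicates.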

Additional observations from a re-analysis of the deposited data

Results flagged for a closer look

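The change from morula to blastula differed between in vivo and NTC embryos for 23 genes and between in vivo and NTM embryos for 62 genes, by the limma test of the difference itself. Both tests use the same in vivo libraries. Of the named genes, Pdcd4 (4.97), Gm2a (3.66), Zfp930 (-5.00) and Cab39l (-5.69) differed against NTC, as the in vivo log2 change minus the NTC change, with adjusted p of 0.0149, 0.0182, 0.0137 and 0.0137. Against NTM these were Sdc4 (4.30), Pdcd4 (4.48), Cthrc1 (-6.72), Hhex (-4.99), Zfp930 (-5.83), Mospd1 (-6.89) and Cab39l (-4.93), with adjusted p of 0.0419, 0.0391, 0.00376, 0.0495, 0.0156, 0.00376 and 0.0265. Pdcd4 was too low in NT embryos to be tested there and entered these tests through the in vivo blastulas, so its values support nothing on their own. Mospd1 fell in vivo and rose in NTM embryos, from 10.8, 8.04 and 6.09 RPKM to 31.7, 35.9 and 26.0 RPKM. Sdc4 rose in both, in NTM from 72.1, 37.9 and 51.8 RPKM to 256, 167 and 148 RPKM. In each of these tests no gene was called when the libraries of 1 replicate number were left out, with 912 to 1698 genes at an unadjusted p under 0.05.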

How the results depend on the processing

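The in vivo calls (69 genes, 30 up, 39 down) numbered 163 with a pseudocount of 0.1 (118 down), 11 without a filter on low values (4 up, 7 down), 110 under median-ratio scaling (63 up), 1098 in the fit over 6 in vivo groups (325 and 773), 1809 in 1 fit over all 20 groups (611 and 1198) and 179 with library weights (63 and 116). Chosen after seeing the data, 8-cell and morula libraries as 1 group gave 762 (275 and 487) and nuclear reads only 194 (49 and 145). Leaving out 1 library gave 0 to 161 calls (0 to 67 up, 0 to 94 down): 2, 0 and 0 without morula 1, 2 and 3, and 161, 35 and 31 without blastula 1, 2 and 3. None of the 69 changed sign in any of these. Against NTC the 23 genes became 161 with the lower pseudocount, 37 under scaling, 309 over 20 groups and 10 with a replicate block, and against NTM the 62 became 266, 33, 650 and 4; leaving out 1 replicate number gave 0 to 0 in both. The replicate block gave 83 in vivo calls (43 up, 40 down). Deviations of same-numbered morulas and blastulas from their group means correlated at r = 0.044, 0.00626 and 0.0201. Other pairs ranged from -0.0366 to 0.0203, and not every library correlated best with its own number. With 3 libraries per group, these values cannot tell whether the numbers pair the embryos. Mean genes detected were 10683 in morulas and 7781 in blastulas, 6569 and 4610.3 at 1 RPKM or more, and 10224 and 7530.3 at the depth of the shallowest library. The log2 fold change of Aqp3 (-0.22) ranged from -1.01 to 0.52 with 1 library left out (0.29 without morula 2, 0.07 without morula 3, 0.52 without blastula 2) and was 0.85 with 8-cell embryos in the reference, and that of Tfcp2l1 (-0.31) was 0.62 with the latter. The cause of these changes was not tested.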
